A study of Bos taurus with 16 samples.

Results

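ENAH, its Ena/VASP paralogs VASP and EVL, and their partners ZYX, LPP, PFN1 and PFN2 were followed in the round and sirloin muscles of newborn Hanwoo calves (Bos taurus). The 7 genes were found by matching the NCBI gene IDs of the deposited tables to gene symbols, which 30762 of the 34109 listed IDs had, and all 7 were listed and tested. ENAH was chosen by its measured difference between the diets in round muscle and the other 6 as its paralogs and partners, so the values of ENAH in that contrast are given as a description. The study took both muscles of 8 calves immediately after birth, before any colostrum, and its methods state that the calves were male. The 4 control dams were fed 100% of their nutritional requirement and the 4 treated dams 150% of it during mid to late pregnancy. This gave 4 groups of 4 libraries (round control, round treated, sirloin control and sirloin treated), and a replicate number within a diet marks the same calf in both muscles. Bulk tissue was sequenced, so fewer cells of a type and less RNA per cell cannot be told apart.

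Ena/VASP proteins bind the growing ends of actin filaments, hold off capping proteins and feed the ends with actin monomers carried by profilin. An EVH1 domain brings them to proline-rich partners such as zyxin at adhesion sites, and a proline-rich stretch in their centre binds profilin. In striated muscle, zyxin-family and Ena/VASP proteins are known at places where filaments are anchored, including the Z-disc and the membrane attachments called costameres.

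Each library held 44473011 to 72446933 counts, and the lowest count of any of the 7 genes was 501. Skeletal muscle fibre markers (10 genes) summed to 53350 to 102000 TPM (the authors' length-scaled abundance) in every library. Marker sums stayed at 59.6 to 122 TPM for endothelial cells (6 genes), at 44.8 to 137 TPM for satellite cells and myoblasts (4 of 5 genes listed), and at 3.28 to 14.7 TPM for leukocytes (6 genes). Platelet and red blood cell markers (6 genes) summed to at most 4.22 TPM, with PPBP and SLC4A1 at 0. In 2 libraries other tissue stood out. The adipocyte markers (5 genes) summed to 3777 TPM in sirloin treated replicate 4 and to at most 15.0 TPM elsewhere. The fibroblast markers (6 genes) summed to 1506 TPM in round control replicate 2 and to 151 to 623 TPM elsewhere.

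ENAH, also called Mena, was the member with the largest ratio of highest to lowest CPM. In CPM (counts relative to the library total, scaled by TMM factors within a muscle), the round control libraries read 599, 615, 722 and 775. The round treated libraries read 123, 162, 150 and 60.2. Every treated library lay below every control library, with means of 678 ± 84.7 and 124 ± 45.4 CPM (SD, n = 4 each), and the fitted log2 fold change was -2.45 (SE 0.32). Because ENAH was chosen by this contrast, its calls here and the shares beside them describe the selection and test nothing further. By edgeR's adjusted p, 1 of the 7 genes (ENAH) was called in this contrast, where 0.0185% of all genes were called. By separation of the groups it was also 1 of 7, against 1.82% of all genes. DESeq2 called ENAH too (0.211% of all genes), whereas limma-voom called 0 of the 7 (0.00461% of all genes), with 1 of 7 (ENAH) at an unadjusted p below 0.05 there (3.94% of all genes). With any library other than treated replicate 4 left out, edgeR called 0 of the 7 genes, while the log2 fold change of ENAH stayed between -2.63 and -2.26.

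In sirloin muscle the same calves gave a less even picture. Sirloin control libraries read 516, 78.9, 70.2 and 204 CPM, and sirloin treated libraries read 46.2, 50.7, 74.3 and 40.6 CPM. The control group was spread 7.35-fold from its lowest to its highest library, against 1.83-fold in the treated group, and treated replicate 3 lay above control replicate 3. The log2 fold change was -2.04 (SE 0.57, 95% interval -3.30 to -0.77), and ENAH did not pass edgeR's test across all genes (adjusted p = 0.876) or that of DESeq2 (adjusted p = 0.136). Without control replicate 1, whose sirloin level of 516 CPM was the highest of that muscle, the log2 fold change was -1.15. Of the 7 genes, 0 passed the adjusted threshold in sirloin muscle with edgeR, where 0.00918% of all genes did, and DESeq2 (0.0607% of all genes) and limma-voom (0.0%) also called 0. ENAH was the 1 member at an unadjusted p below 0.05, against 3.91% of all genes. The sirloin libraries come from the calves used for the round contrast and are not independent animals.

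The diet difference of ENAH was 0.43 lower in round than in sirloin muscle on the log2 scale (interaction -0.43, SE 0.68). The interaction contains the round diet difference by which ENAH was chosen, so its values and p for ENAH are a description. No member passed the interaction test by edgeR, DESeq2 or limma-voom, adjusted or not, over the 16 libraries, and 0.0% of all genes passed edgeR's adjusted threshold (2.78% at an unadjusted p below 0.05, 1.29% by DESeq2 and 1.69% by limma-voom). The value for ENAH moved with the calf left out and with the method. It was -1.37 without control replicate 1 (unadjusted p = 0.0234 by edgeR, not past the adjusted threshold), -0.19 without control replicate 2 and -0.09 without control replicate 3. It was -0.98 with limma-voom, and -1.01 with the calf as a block (SE 0.58, unadjusted p = 0.104 by edgeR). With that block, too, 0 of the 7 genes passed, adjusted or not, against 3.78% of all genes at an unadjusted p below 0.05.

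**Figure D1:**
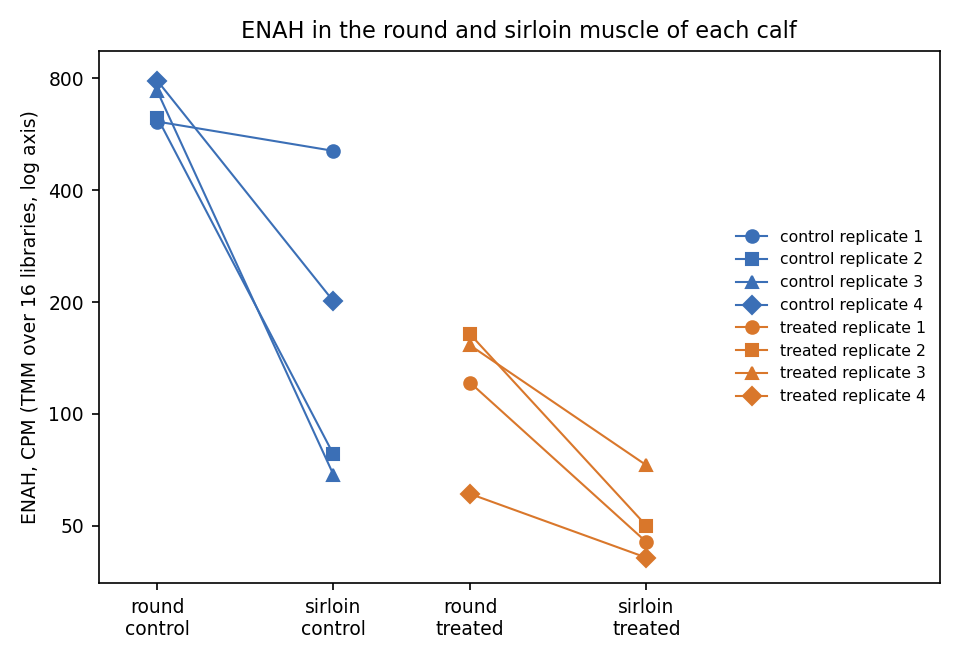
ENAH in CPM (TMM factors over all 16 libraries, log axis) in the round and sirloin muscle of each calf, with a line joining both muscles of a calf, control calves in blue and treated calves in orange. All 8 lines fall from round to sirloin, steeply in control replicates 2 and 3 (8.06-fold and 10.8-fold) and little in control replicate 1 (1.199-fold).

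Between the muscles ENAH was higher in round than in sirloin in 8 of 8 calves, a direction shown in all calves by 1.15% of the 22877 genes tested. On CPM scaled over all 16 libraries, the round to sirloin ratio was 1.199, 8.06, 10.8 and 3.92 in control replicates 1 to 4. In the treated calves it was 2.68, 3.27, 2.101 and 1.48. The control ratios thus ran both below and above all those of the treated calves. The fitted log2 difference was 1.47 (SE 0.35, 95% interval 0.74 to 2.20), with an adjusted p of 0.233 by edgeR. The muscles come in pairs from the same animals, and with the calf as a block the difference was 1.70 with an adjusted p of 0.0307 (0.476% of all genes called). DESeq2 without the block gave an adjusted p of 0.0102 (0.372% of all genes called), and limma-voom gave 0.114 (0.0918% of all genes called). Without control replicate 1, the calf with the smallest ratio, edgeR gave 1.95 with an adjusted p of 0.0110. Over all alternatives the adjusted p for ENAH ran from 0.0102 to 0.705.

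Markers of smooth muscle and pericytes (8 genes) and of fibroblasts (6 genes) were set beside ENAH in each contrast. By edgeR none of these 14 genes passed the adjusted threshold in any of the 3. Of the smooth muscle and pericyte genes, 1 was at an unadjusted p below 0.05 between diets in round muscle (lower), 0 in sirloin muscle and 3 between the muscles (higher in round). Over all genes, 4.41%, 3.91% and 6.33% were at that threshold in either direction. The list medians were -0.33, -0.08 and 0.54, against 0.02, 0.03 and 0.00 for all genes tested. The gene of the round diet contrast was CNN1, a calponin of smooth muscle. It averaged 42.5 ± 1.70 CPM in the control libraries against 12.6 ± 4.995 CPM under treatment. DESeq2 called it, 1 of the 8 genes, at the adjusted threshold, against 0.211% of all genes. Of the 8 genes, 5 had a negative and 3 a positive log2 fold change in that contrast. The summed level of the list overlapped between the diets in round muscle (164 to 251 TPM in control, 122 to 277 TPM in treated) and was 107 to 185 TPM in sirloin. The fibroblast markers had medians of -0.70, 0.34 and 0.63 in the same 3 contrasts. Of them 0, 1 (higher in treated) and 1 (higher in round) were at an unadjusted p below 0.05. The satellite cell and myoblast markers (4 genes) had medians of -0.30, -0.57 and 0.21. Of them 0 were at an unadjusted p below 0.05 by edgeR. The skeletal muscle fibre markers (10 genes) had medians of 0.13, -0.32 and -0.13. The medians were 0.03, 0.11 and 0.17 for endothelial and 0.22, 0.92 and 0.06 for leukocyte markers. For adipocyte markers they were -1.32, 8.12 and -4.12, with sirloin treated replicate 4 included. For the tested platelet and red blood cell markers they were 1.52, 0.83 and 0.22. The part of any of these cells in the ENAH values was not tested.

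On the per-length TPM scale the order of the genes shifted with ENAH. In round control muscle ENAH stood at 149.5 ± 17.9 TPM and overlapped PFN1 at 152 ± 90.4 TPM, and each ENAH value lay above every value of PFN2, ZYX, EVL, VASP and LPP. In round treated muscle it stood at 29.1 ± 11.99 TPM, beside EVL at 31.3 ± 3.43 TPM. The ENAH libraries there ran from 13.4 to 41.4 TPM and those of EVL from 27.8 to 34.3 TPM. In sirloin control muscle ENAH at 46.4 ± 42.3 TPM overlapped ZYX (47.2 ± 16.6 TPM) and EVL (29.6 ± 3.25 TPM). In sirloin treated muscle, at 12.9 ± 3.44 TPM, it lay below EVL and overlapped VASP at 10.4 ± 3.75 TPM. LPP was the lowest of the 7 by mean in all 4 groups, at 5.84 to 8.35 TPM, and its range overlapped that of VASP in all groups but round treated.

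ENAH made up 76.4, 76.3, 82.0 and 84.5% of the summed TPM of the 3 Ena/VASP paralogs in the round control libraries. In the round treated libraries its share was 36.7, 47.7, 46.8 and 25.5%. ENAH was the leading paralog in all 4 round control libraries. In the round treated libraries ENAH led in replicates 2 and 3 and EVL, at 37.7 to 55.0%, led in replicates 1 and 4. In sirloin control muscle the ENAH share was 75.3, 34.1, 26.5 and 53.7%, and in sirloin treated muscle it was 20.0, 20.1, 33.8 and 17.8%. EVL had the largest share in all 4 sirloin treated libraries, at 52.5 to 65.6%. The paralogs together summed to 187 ± 18.8 TPM in round control, 71.7 ± 14.2 in round treated, 84.2 ± 40.9 in sirloin control and 56.8 ± 3.96 in sirloin treated muscle. These shares include ENAH's own diet difference and are a description.

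**Figure D2:**
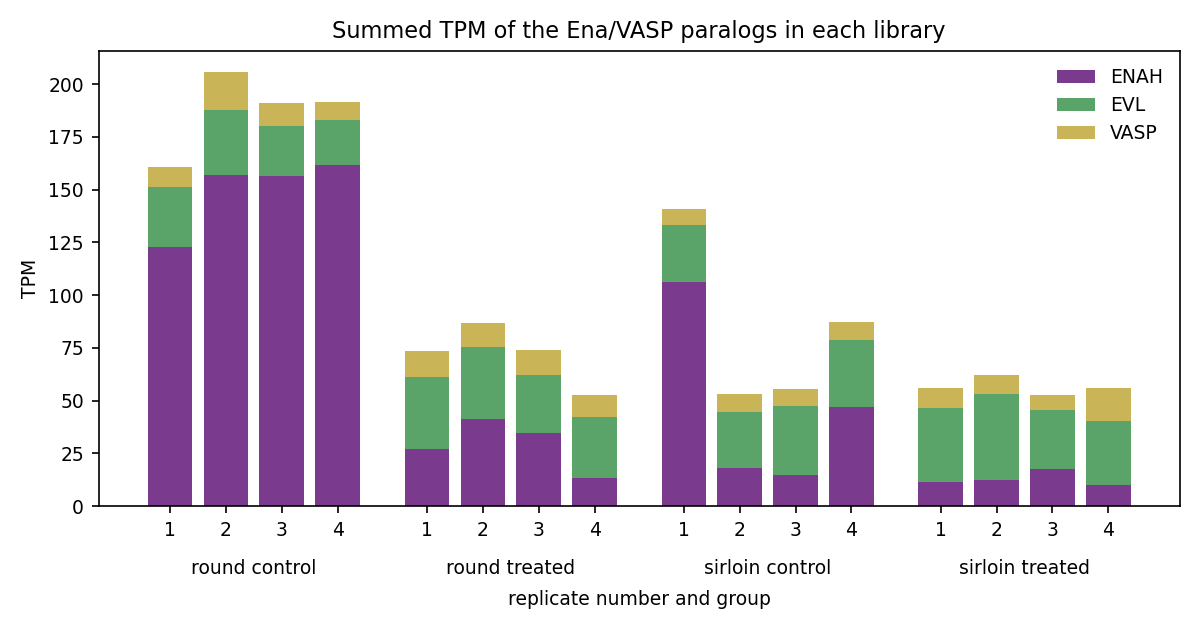
Summed TPM of ENAH (purple), EVL (green) and VASP (yellow) in each of the 16 libraries, by group and replicate number. The ENAH segment fills at least 75.3% of the bar in the 4 round control libraries and in sirloin control replicate 1, while the EVL segments stay between 21.3 and 40.8 TPM.

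VASP, the founding family member and abundant in platelets, stood at 14.3, 21.7, 15.2 and 12.8 CPM in round control and at 17.4, 13.6, 15.4 and 14.1 CPM in round treated libraries. The groups overlapped, with a log2 fold change of -0.08 (SE 0.24, 95% interval -0.61 to 0.44, adjusted p = 0.990 by edgeR). Sirloin control libraries were nearly level at 11.6, 11.5, 11.8 and 11.6 CPM, and sirloin treated libraries read 12.4, 10.8, 9.35 and 19.6 CPM. The highest values, in round control replicate 2 and sirloin treated replicate 4, came from the libraries with the high fibroblast and adipocyte markers, whose part was not tested. The sirloin log2 fold change was 0.17 (SE 0.25) with that sirloin library and -0.10 without it.

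VASP was higher in round than in sirloin muscle in 7 of 8 calves, the exception being treated replicate 4. The log2 difference was 0.37 (SE 0.17, unadjusted p = 0.0390, adjusted p = 0.765 by edgeR), and 0.52 without that calf (adjusted p = 0.450). In this contrast edgeR called 0 of the 7 genes at the adjusted threshold, where 0.0612% of all genes were called. At an unadjusted p below 0.05, edgeR and limma-voom each gave 2 of 7 (ENAH and VASP), against 6.33% and 5.59% of all genes. With the calf as a block it was 3 of 7 (ENAH, VASP and PFN2, all higher in round), against 11.2% of all genes, and VASP had an adjusted p of 0.314.

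EVL, a paralog well expressed in blood cells, had the smallest ratio of highest to lowest CPM of the 7 genes over the 16 libraries. Its libraries ranged from 25.5 to 34.7 CPM in round control and from 29.7 to 38.3 CPM in round treated muscle. In sirloin they ranged from 28.3 to 38.1 CPM in control and from 28.2 to 39.3 CPM in treated muscle. All 4 groups overlapped. The log2 fold change between diets was 0.17 (SE 0.21) in round and -0.00 (SE 0.19) in sirloin muscle, and between the muscles it was -0.06 (SE 0.12).

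ZYX encodes zyxin, the LIM protein that recruits Ena/VASP proteins to adhesions and strained filaments. Round control libraries read 73.05, 81.4, 70.3 and 70.7 CPM, and round treated libraries 66.0, 73.02, 83.8 and 47.1 CPM. The sirloin groups were wider, at 97.1, 41.1, 51.5 and 82.3 CPM in control and 39.1, 96.1, 68.2 and 53.9 CPM in treated muscle. Control and treated libraries overlapped in both muscles, with log2 fold changes of -0.13 (SE 0.23) and -0.08 (SE 0.33). In sirloin control muscle ZYX was high in replicates 1 and 4, the libraries in which ENAH was also high. After the group means were removed, ENAH and ZYX correlated at r = 0.742 over the 16 libraries, which share calves. The next highest of the 6 was PFN2 at 0.582, and VASP, EVL, PFN1 and LPP lay between -0.242 and -0.103. These correlations are descriptive.

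LPP, a zyxin relative with the same kind of Ena/VASP-binding motifs, was spread widely within the groups. Its round control libraries read 38.3, 86.5, 86.7 and 143 CPM and its round treated libraries 70.1, 83.3, 37.1 and 59.4 CPM. The log2 fold change of -0.50 (SE 0.37, 95% interval -1.31 to 0.31) did not pass edgeR's test (adjusted p = 0.864). It was -0.17 without control replicate 4 and -0.75 without control replicate 1 (unadjusted p = 0.0382, adjusted p = 0.788 by edgeR), the control libraries with the highest and the lowest LPP level. Sirloin libraries ranged from 55.3 to 124 CPM in control and from 75.4 to 101 CPM in treated muscle, with a log2 fold change of -0.05 (SE 0.25). In treated replicate 3, LPP was at 37.7 CPM in round and 98.7 CPM in sirloin muscle on the 16-library scale, a ratio of 0.382, the lowest ratio of any gene and calf in the set.

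The profilins deliver actin monomers to Ena/VASP proteins, PFN1 being the common form and PFN2 the form known best from neurons. PFN1 read 72.4, 126, 52.6 and 48.1 CPM in round control and 149, 51.9, 76.6 and 62.3 CPM in round treated libraries. In sirloin it read 62.1, 123, 61.6 and 60.3 CPM in control and 115, 63.9, 67.2 and 61.2 CPM in treated libraries. The high value in each group belonged to the same calf in both muscles, control replicate 2 and treated replicate 1. On the 16-library scale those 4 libraries spanned 113 to 147 CPM and the other 12 spanned 49.0 to 77.8 CPM. The summed satellite cell and myoblast markers were also highest there, at 137 and 128 TPM in round and sirloin control replicate 2. They were 99.9 and 92.6 TPM in round and sirloin treated replicate 1, and at most 77.7 TPM in the other 12. The part of these cells in the PFN1 values was not tested. The diet groups overlapped, with log2 fold changes of 0.19 (SE 0.39) in round and -0.00 (SE 0.30) in sirloin muscle.

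PFN2 read 99.2, 66.7, 98.7 and 163 CPM in round control and 74.6, 214, 131 and 69.5 CPM in round treated libraries. Sirloin control libraries read 111, 45.7, 94.4 and 120 CPM, and sirloin treated libraries 62.2, 90.7, 87.0 and 40.7 CPM. Control replicate 2, high for PFN1, was the lowest control library for PFN2 in both muscles, and the per-length ratio of PFN1 to PFN2 ran from 0.623 to 7.09 across the libraries. With group means removed the profilins correlated at r = -0.663 over 16 libraries, again as a description. PFN2 had log2 fold changes of 0.19 (SE 0.39) in round and -0.40 (SE 0.33) in sirloin muscle between diets. It was higher in round than in sirloin muscle in 7 of 8 calves, by 0.55 on the log2 scale (SE 0.27, adjusted p = 0.811 by edgeR, 0.117 with the calf block).

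**Figure D3:**
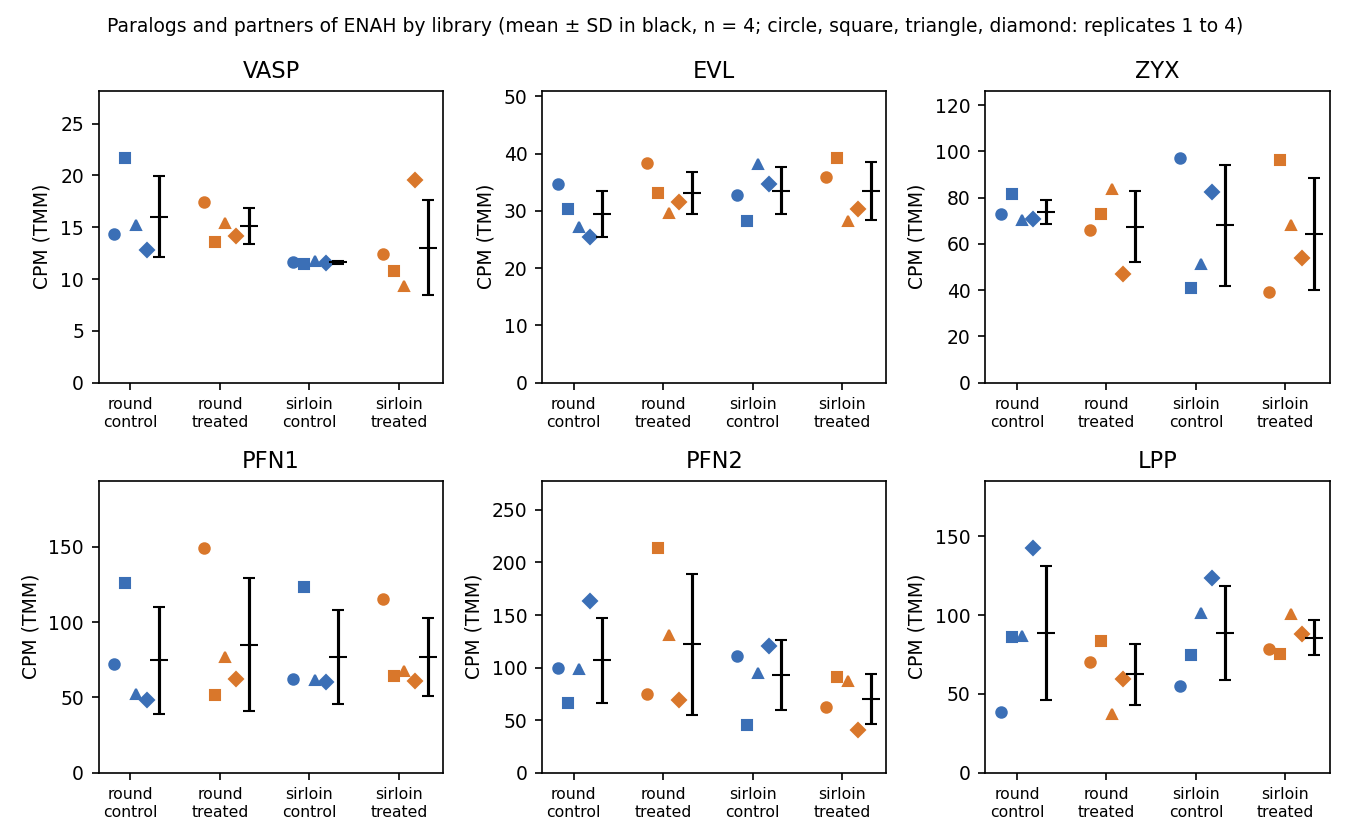
CPM (TMM factors within each muscle) of VASP, EVL, ZYX, PFN1, PFN2 and LPP in each library, control in blue and treated in orange, with symbols for replicates 1 to 4 and the mean ± SD (n = 4) in black. Control and treated libraries overlap for all 6 genes in both muscles, and for PFN1 the same calf is highest in the round and the sirloin group of each diet.

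For the 6 genes other than ENAH, the 95% intervals of the diet log2 fold changes reached from -1.31 to 1.04 over both muscles. The lowest adjusted p of any of them under any setting tried was 0.788. Differences of the size seen for ENAH in round muscle lay outside these intervals, while smaller ones were not excluded by 4 calves a group.

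**Figure D4:**
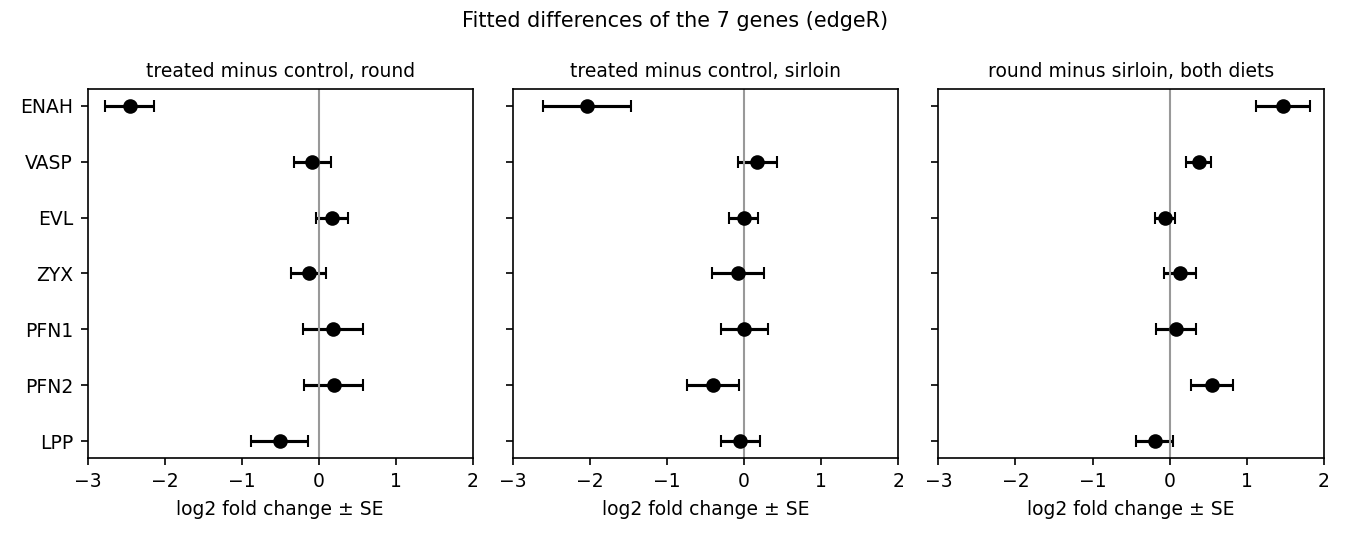
Fitted log2 fold changes with SE bars (edgeR) of the 7 genes for treated minus control in round muscle, the same in sirloin muscle, and round minus sirloin muscle over both diets. ENAH lies at -2.45, -2.04 and 1.47, and the other 6 genes lie between -0.50 and 0.55.

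The genes whose pattern was most like that of ENAH were sought among 11387 genes with a mean of at least 1 CPM. These were non-member genes with a symbol that does not start with LOC, so uncharacterized loci were not considered. Over the 16 libraries, on log2 CPM, the highest Pearson correlations were those of FOSL1, an AP-1 transcription factor (0.926), RNF115, a ubiquitin ligase (0.922), HBEGF, a ligand of the EGF receptor (0.912), and CREB5, a transcription factor (0.904). DLK2 (0.897), the small heat shock protein HSPB8 (0.893), the muscle filamin FLNC (0.891) and the nuclear import receptor KPNA1 (0.887) followed. FOSL1 averaged 12.8 ± 6.86 CPM in round control and 0.549 ± 0.370 CPM in round treated muscle. FLNC was far more abundant, at 13470 ± 5764 and 5803 ± 2519 CPM. Like ENAH, all 8 genes had their highest group mean in round control muscle and their lowest in sirloin treated muscle. Because they were picked by correlation over these same libraries, that shared order follows largely from the choice. When the group means were removed, the closest genes were RNF41 (0.857), LITAF (0.837), PAPPA (0.832), ROS1 (0.828) and TJAP1 (0.824), so the 2 lists shared no gene. All these values rest on 16 libraries from 8 calves and are descriptive.

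**Figure D5:**
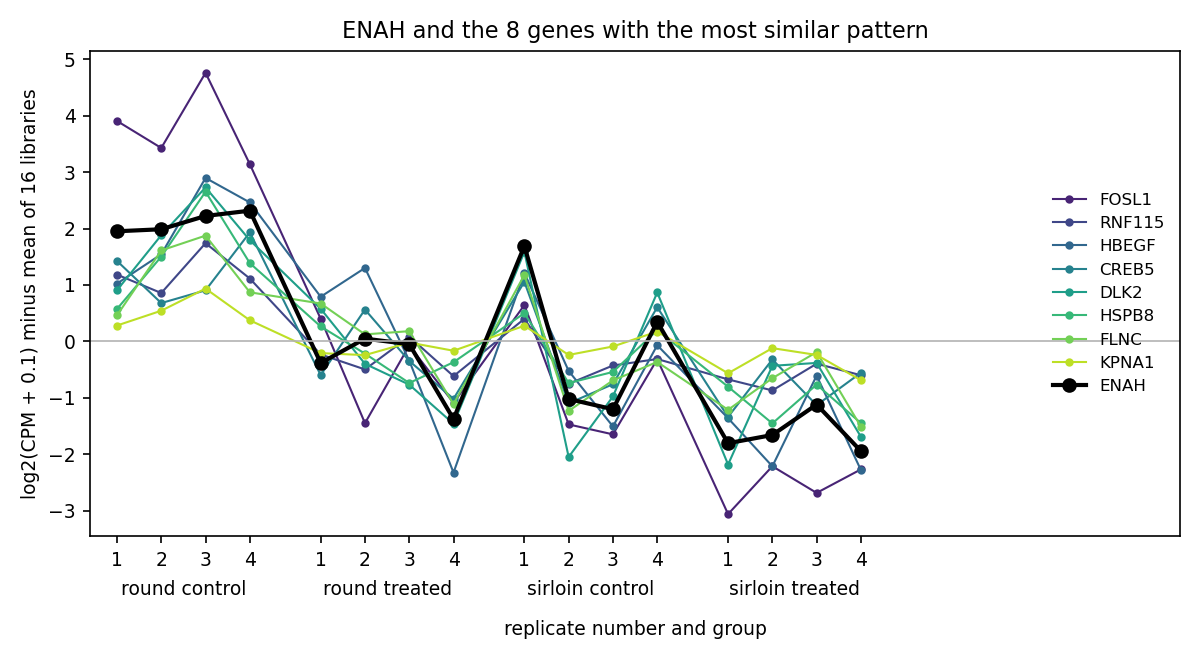
Log2(CPM + 0.1) minus its mean over the 16 libraries for ENAH (black) and the 8 genes with the highest correlation with it, by group and replicate number; the lines only guide the eye. The curves are high in the 4 round control libraries and in sirloin control replicate 1, and low in the sirloin treated libraries.

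Around these genes, 101 further genes of the actin pathway were taken in 5 lists. None passed the adjusted threshold between diets in either muscle by edgeR, DESeq2 or limma-voom. At an unadjusted p below 0.05 edgeR gave 9 of 100 tested genes in round muscle (1 higher, 8 lower) and 5 of 101 in sirloin muscle (1 higher, 4 lower), against 4.41% and 3.91% of all genes. DESeq2 gave 11 and 6 of them, against 4.04% and 3.26% of all genes, and limma-voom 10 and 4, against 3.94% and 3.13%. Between the muscles it was 16 of 101 by edgeR (12 higher in round, 4 lower), against 6.33% of all genes, again with 0 at the adjusted threshold. With the calf block 29 of 101 were at an unadjusted p below 0.05, against 11.2% of all genes. At the adjusted threshold it was 1 of 101 (FHOD3), against 0.476% of all genes.

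Among the 17 ligands and recruiters of the EVH1 domain, 13 had a negative diet log2 fold change in round and 13 in sirloin muscle, with medians of -0.33 and -0.19 against 0.02 and 0.03 for all genes. XIRP1, the muscle protein Xin, read 5002, 702, 4836 and 3207 CPM in round control libraries and 466, 1092, 1269 and 402 CPM in round treated libraries. Control replicate 2 was the low library that made the groups overlap, and the log2 fold change was -2.09 (SE 0.57, adjusted p = 0.864 by edgeR). In sirloin muscle XIRP1 read 4300 CPM in control replicate 1, where ENAH was also highest, and 152 to 1723 CPM in the other control libraries. Its relative XIRP2 had log2 fold changes of -0.90 (SE 0.41) in round and -1.07 (SE 0.50) in sirloin muscle, and 0.74 (SE 0.34) between the muscles. FBLIM1, which links filamin to adhesions, was on the sirloin side at -0.47 (SE 0.20).

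In the list of 23 genes for monomer handling and filament turnover, the medians were -0.09 in round and 0.17 in sirloin muscle. The capping protein subunit CAPZA1 and the depolymerizing factor DSTN had lower round treated than round control values without overlap, with log2 fold changes of -0.60 (SE 0.21) and -0.70 (SE 0.27), where 0.992% of all genes were lower without overlap. In sirloin muscle CAPZA2 (-0.51, SE 0.21) and CAP2 (-0.58, SE 0.23) had the smallest p of the list. CAPZA2 was lower there in treated than in control libraries without overlap. That held for 1 of the 23 genes in sirloin muscle, where 0.813% of all genes were lower without overlap. DSTN was on the round side between the muscles, at 0.60 (SE 0.24).

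The 30 nucleators and elongators, which start new filaments or extend them, had medians of -0.06 in round and -0.03 in sirloin muscle. WASF3, a subunit of the WAVE complex, was at 4.25 ± 0.820 CPM in round control and 7.29 ± 2.42 CPM in round treated libraries (log2 fold change 0.78, SE 0.31), and at 0.56 (SE 0.28) in sirloin muscle. FMNL1 was at 0.77 (SE 0.33) in sirloin muscle. The formins FHOD3 and DAAM2 were higher in round than in sirloin muscle in all 8 calves, by 1.42 (SE 0.42) and 0.63 (SE 0.21) on the log2 scale. They were 2 of the 30 genes, and 1.15% of all genes were higher in round in all 8 calves.

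Of the 22 focal adhesion and costamere genes, ITGA5, an integrin that binds fibronectin, read 51.5, 108, 48.4 and 65.7 CPM in round control and 31.1, 35.9, 43.3 and 26.1 CPM in round treated libraries. These groups were separate, with a log2 fold change of -1.01 (SE 0.29, adjusted p = 0.864 by edgeR). That held for 1 of the 22 genes, where 0.992% of all genes were lower without overlap. FLNC gave -1.19 (SE 0.43) in round and -0.83 (SE 0.49) in sirloin muscle, with overlap in both, and ACTN2 gave -0.37 (SE 0.24) in sirloin muscle. Between the muscles ITGA5 and FLNC were on the round side, at 0.70 (SE 0.20) and 1.09 (SE 0.35). The list medians of 0.02 in round and -0.15 in sirloin muscle compare with 0.02 and 0.03 for all genes.

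The 9 kinases and ubiquitin ligases that act on Ena/VASP proteins included PRKG1, the cGMP-dependent kinase that phosphorylates VASP. It read 80.2, 20.2, 110 and 88.6 CPM in round control and 16.2, 56.3, 25.6 and 24.3 CPM in round treated libraries, with a log2 fold change of -1.29 (SE 0.49). In sirloin muscle it was -1.24 (SE 0.44), with 133 CPM in control replicate 1 and 24.2 to 81.1 CPM in the other control libraries. PRKAA1, a catalytic subunit of AMP-activated kinase, was at -0.59 (SE 0.32) and -0.75 (SE 0.27). The medians of the list were -0.04 over 8 tested genes in round and -0.22 over 9 in sirloin muscle. PRKACB was at 0.37 (SE 0.20) between the muscles. SPIRE2, PFN4 and TRIM9, which met the same rule, averaged at most 0.154 CPM in any group and are not compared.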

How the data were processed

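RNA was sequenced from 16 libraries, both muscles of 8 calves. The sources disagree on how. The paper's methods name rRNA and globin removal with a stranded kit, HISAT2, Bowtie2 and StringTie, whereas the labels state poly(A) selection, and the submitters' processing notes list FastQC, Trimmomatic, STAR, featureCounts and DESeq2. These accounts were not reconciled. The authors deposited read counts without normalization and normalized values, which sum to 999756 to 1000000 per library and were read as TPM. Tables of the authors' own fold changes and p-values went unused. Symbols came from the ARS-UCD2.0 annotation, used for names only; no sequence was printed. EVL and LPP overlap 5 annotated genes, of which 3 had at most 2 counts in a library and 2 were not analysed here.

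In R 4.3.3, edgeR 4.0.16 (TMM, glmQLFit, glmQLFTest) compared the diets within each muscle (8 libraries) and the muscles and the interaction over 16 libraries, on genes with at least 1 count in any library, two-sided, with Benjamini-Hochberg adjustment at 0.05. The tests covered 21677 genes in round muscle, 21776 in sirloin muscle and 22877 over all libraries. The SE was the size of the log2 fold change divided by the square root of F. Except where the calf block is named, the fits over 16 libraries did not pair the muscles of a calf. DESeq2 1.42.0, limma-voom (limma 3.58.1), RLE factors, the filterByExpr filter, blocks and leaving out each calf were alternatives. Scripts were tested on simulated data. Calves pair the muscles: the deviations of a calf's libraries from their group means correlated at 0.311 to 0.765. The 7 genes, the lists and the naming rule (the 7, the 2 smallest p of each list and comparison, and the genes closest to ENAH) were chosen with earlier results of these data known. CNN1 was named after its values were seen. Replicates are separate calves.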

Additional observations from a re-analysis of the deposited data

Results flagged for a closer look

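PFN1 stood out in 2 of the 28 groups of 4 libraries tested (7 genes in 4 groups). In sirloin control replicate 2 it read 123.5 CPM, and its gap to the next library took 0.971 of the range of the group. In sirloin treated replicate 1 it read 115.3 CPM, with a gap of 0.888 of the range. Both exceed Dixon's critical value for 4 samples at the 95% level, and chance alone marks about 1 in 20 groups. The same calves were highest for PFN1 in round muscle. Their libraries also had the highest summed satellite cell and myoblast markers, whose part was not tested.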

How the results depend on the processing

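Of 364 values of single genes under the alternatives, 321 kept their direction and their side of the threshold, 31 changed sign, 9 fell below the threshold and 3 rose past it. Only ENAH passed the threshold under any setting, so the 9 and the 3 were all values of ENAH. The 321 mostly count genes that were never called and do not measure how stable the ENAH call was. Among the 7 genes, the number called between diets in round muscle was 1, and 0 with limma-voom and with a replicate block; leaving out a calf gave 0 to 1, with 1 only without treated replicate 4. Smaller groups lower the power of these fits. The replicate numbers did not pair calves across diets (correlations of -0.28 to 0.29), so the block has no basis in the design there. Between the muscles the number was 0, and 1 with DESeq2 and with the calf as replicate block; leaving out a calf gave 0 to 1, with 1 only without control replicate 1.

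ENAH kept its direction in every contrast and setting. With all calves kept, the sign changes lay near 0. On leaving out a calf they reached further, to -0.245 for PFN2 in round and 0.325 for PFN1 in sirloin muscle. In sirloin muscle the diet log2 fold change became 0.003 for EVL with filterByExpr. For PFN1 it became 0.002 with DESeq2, 0.009 with limma-voom, 0.002 with RLE factors, 0.007 with filterByExpr and 0.024 with the replicate block. For LPP it became 0.009 with limma-voom and 0.006 with the replicate block. Leaving out a calf, the round values ran from -0.174 to 0.067 for VASP, from -0.233 to 0.524 for PFN1 and from -0.245 to 0.472 for PFN2. The sirloin values ran from -0.099 to 0.297 for VASP, from -0.091 to 0.068 for EVL, from -0.340 to 0.147 for ZYX, from -0.263 to 0.325 for PFN1 and from -0.218 to 0.151 for LPP. The interaction ran from -0.403 to 0.024 for VASP and from -0.293 to 0.161 for ZYX. The cause was not tested.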

Other observations

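The profilins together summed to 232 ± 75.1 TPM in round control, 278 ± 74.8 in round treated, 223 ± 47.9 in sirloin control and 229 ± 55.2 in sirloin treated muscle (SD, n = 4), so the group ranges overlapped. The TPM ratio of ZYX to LPP ran from 4.07 to 18.3 across the 16 libraries, highest in round treated replicate 3 and round control replicate 1. ROS1, a receptor tyrosine kinase, read 2.12 to 75.7 CPM in sirloin control and 0.718 to 4.79 CPM in sirloin treated muscle.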
